A study of Mus musculus with 6 samples.

Results

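The 500 regions described here are stretches of open chromatin of mouse blood monocytes that were found in all 6 ATAC-seq libraries of the series and had a higher fold enrichment in every DTR library than in any WT library. They were chosen by that measured difference. Overlapping or touching peaks of the 6 libraries were merged on chromosomes 1 to 19, which gave 90477 regions, of which 67099 had a peak in every library and are called shared. In each library a region's value was the log2 of the highest fold enrichment of its peaks, minus the library's median over shared regions, so that a value of 0 is a typical shared region. A region was called higher in DTR where its lowest DTR value exceeded its highest WT value, and the 500 with the largest DTR mean minus WT mean were kept. Fold enrichment is the peak caller's ratio of signal over its own background, as the authors deposited it.

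The study compared monocytes of thrombocytopenic mice with those of control mice. Its title names histone modifications, but every sample is labelled ATAC-seq, and the values were read as such. Mice with the genotype PF4cre-iDTR gave the 3 DTR libraries, wild-type mice gave the 3 WT libraries, and all had received diphtheria toxin. In the DTR mice Cre recombinase is driven by the promoter of Pf4, a gene of megakaryocytes and platelets, and opens the way to expression of the toxin's receptor in cells that have had Cre. The labels give no age, sex, dose or time of the toxin, and do not say whether a library came from 1 animal or from a pool, so the spread between libraries of a group may be technical.

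In ATAC-seq the Tn5 transposase cuts DNA where nucleosomes leave it free, so a peak marks an accessible stretch. Accessible DNA lies at promoters, which many cell types hold open alike, and at enhancers inside or between genes, which differ more between cell types and states. Monocytes are blood phagocytes that bind platelets and take up material released by them, and the classical kind matures in the circulation into a non-classical kind.

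The label of the cells was set against marker genes. Every one of the 15 classical monocyte genes and 18 of 19 non-classical genes had a shared region within 1 kb of an end of the gene. Lists of related cells were nearly as high, with 12 of 13 for dendritic cells, 12 of 14 for stem and progenitor cells and 15 of 18 for macrophages. Neutrophils had 10 of 15, erythroid cells 7 of 12, B cells 6 of 11, megakaryocytes and platelets 9 of 17, and T and NK cells 6 of 16. WT library 1 stood nearest to DTR. Across shared regions its values correlated with those of the DTR libraries at r = 0.953 to 0.956 and with those of the other WT libraries at 0.951 and 0.954, and it was the highest WT library in 250 of the 500 regions. Without it the 500 chosen regions had a median difference of 0.52 on the log2 scale against 0.45 with it, and 345 of the 500 were chosen again. Leaving out any other library instead gave medians of 0.47 to 0.49, and 326 to 359 chosen again, so that count was not particular to WT library 1. Each DTR library had more peaks on these chromosomes (79569 to 81980) than each WT library (76015 to 78560), and 718 merged regions had a peak in all 3 DTR and 0 WT libraries, against 89 in the reverse. Their read depth is unknown, and depth and group cannot be told apart.

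On the chromosomes with listed starts, 11 of 484 regions overlapped the window around a listed transcription start, 250 bases before to 50 after it. Of all shared regions on those chromosomes, 10258 of 65127 did. For the 11 a sequence can be shown. The RefSeq table of GRCm38.p6 promoters gave 12 such windows of 11 genes. The 250 bases before the start are printed for 5 of them, the genes with the largest DTR minus WT difference, 5′ to 3′ on the strand of the gene. Capitals mark the letters of any of 19 short motifs searched on both strands.
Fcnb, chr2:28084879-28085128, minus strand: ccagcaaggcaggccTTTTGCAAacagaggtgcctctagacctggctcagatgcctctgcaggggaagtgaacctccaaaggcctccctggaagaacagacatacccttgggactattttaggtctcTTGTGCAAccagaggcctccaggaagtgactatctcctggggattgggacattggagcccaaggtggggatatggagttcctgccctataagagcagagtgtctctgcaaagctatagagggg
Stfa3, chr16:36455393-36455642, minus strand: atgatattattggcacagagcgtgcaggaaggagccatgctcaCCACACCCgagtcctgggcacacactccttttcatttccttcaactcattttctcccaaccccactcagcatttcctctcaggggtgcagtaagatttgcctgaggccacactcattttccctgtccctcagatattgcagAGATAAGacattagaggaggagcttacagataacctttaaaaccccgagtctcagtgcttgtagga
2610528A11Rik, chr14:37110102-37110351, minus strand: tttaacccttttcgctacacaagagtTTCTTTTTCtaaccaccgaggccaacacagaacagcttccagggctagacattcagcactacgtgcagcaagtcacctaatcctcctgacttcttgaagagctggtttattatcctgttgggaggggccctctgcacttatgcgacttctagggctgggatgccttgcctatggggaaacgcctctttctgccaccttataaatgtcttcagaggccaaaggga
Gm13194, chr2:4941835-4942084, plus strand: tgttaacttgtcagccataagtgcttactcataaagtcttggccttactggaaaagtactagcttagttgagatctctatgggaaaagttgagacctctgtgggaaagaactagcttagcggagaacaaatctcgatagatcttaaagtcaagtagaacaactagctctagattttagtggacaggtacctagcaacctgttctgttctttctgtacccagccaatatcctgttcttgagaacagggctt
Tmem108, chr9:103761838-103762087, minus strand: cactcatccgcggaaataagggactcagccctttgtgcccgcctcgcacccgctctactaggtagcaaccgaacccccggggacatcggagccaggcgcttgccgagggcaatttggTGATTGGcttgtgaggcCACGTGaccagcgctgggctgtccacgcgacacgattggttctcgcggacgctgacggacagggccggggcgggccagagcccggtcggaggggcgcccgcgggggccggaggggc

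The capitals in the Fcnb promoter are 2 matches to the C/EBP motif TTGCNNAA. Those of Stfa3 are the KLF motif CCACACCC and the GATA motif AGATAAG, and that of 2610528A11Rik is the IRF motif GAAANNGAA on the other strand. Tmem108 holds NF-Y (CCAATCA, other strand) and E-box (CACGTG) letters, and the Gm13194 sequence holds none of the 19. Most of these promoters were poor in CpG dinucleotides, which are dense in the promoters of widely used genes. Over 300 bases the 12 windows had a median of 6.5 CpG and 53.2% GC, against 21 CpG and 61.3% GC in 13552 promoters that overlap shared regions. Of the 12, 5 (41.7%) held 10 or more CpG, compared with 81.1% of the 13552. The 500 regions with the largest difference in the opposite direction overlapped 64 windows, which lay between. Those had a median of 13 CpG and 56.2% GC, and 57.8% of them held 10 or more CpG. The printed bases of Fcnb held 0 CpG and those of Tmem108, the exception among the 5 printed, held 27. Among the windows not printed, that of Hoxa5 held 28 in the 250 bases before its start.

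Motif letters occur by chance, and with 12 windows their counts are a description. KLF letters were in 4 of the 12 (33.3%), of which 2 are overlapping windows of Gm32017, against 4.01% of promoters in shared regions and 3.57% of all. For C/EBP letters the count was 2 (16.7%) against 8.40%, for NF-Y 2 (16.7%) against 10.1%, for the E-box 2 (16.7%) against 10.2%, and for the GC box of SP factors (GGGCGGGG) 3 (25%) against 32.7%. One window each (8.33%) had the letters of PU.1 (GAGGAAG, 14.5% of promoters in shared regions), IRF (7.21%), AP-1 (TGANTCA, 5.14%) and GATA (1.60%). The remaining motifs were in 0 of the 12. They were the promoter form of ETS (CCGGAAG, 17.5%), CTCF (AGGGGGC, 16.5%), STAT (TTCNNNGAA, 6.69%), YY1 (AAGATGGC, 4.29%), RUNX (TGTGGTT, 4.04%), NRF1 (GCGCATGCG, 3.60%), CREB (TGACGTCA, 3.20%), EGR (GCGTGGGCG, 1.18%), NR4A (AAAGGTCA, 1.03%) and NF-kB (GGGANTTTC, 0.974%). Letters of 2 motifs may share bases.

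The differences that chose the 500 regions were mostly small. Of the 67099 shared regions 4539 (6.76%) were higher in DTR without overlap of the groups and 7469 (11.1%) were lower, and the 500 make up 0.745% of shared regions. The balance between higher and lower regions depended on centring. Higher regions were 37.8% of those without overlap, and 67.0% when each library's median was not subtracted. The medians subtracted by centring were larger in every DTR library than in every WT library, except DTR library 3 against WT library 3. The choice thus nearly fixed that all 500 were higher in every DTR library than in any WT library before centring as well. Their fold enrichment had a median of 6.32, 6.24 and 6.31 in DTR libraries 1, 2 and 3, and of 4.54, 4.29 and 4.37 in WT libraries 1, 2 and 3. The DTR libraries lay close together and the WT libraries well below them, with WT library 1 the highest of the 3. As centred values the medians were 0.11, 0.08 and 0.13 in DTR and −0.32, −0.41 and −0.40 in WT, so that the 500 were near a typical shared region in DTR and below it in WT.

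**Figure D1:**
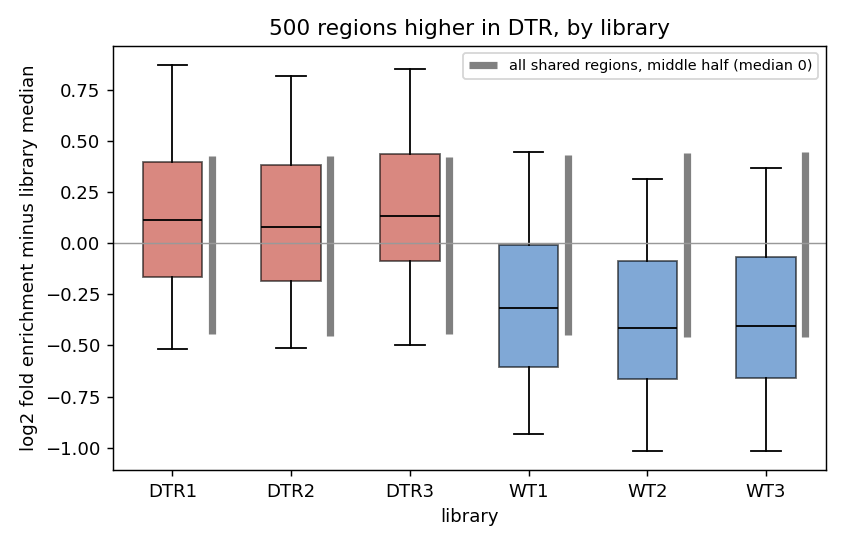
Centred log2 fold enrichment of the 500 regions in each of the 6 libraries. Boxes give the median and interquartile range over regions, whiskers the 5 to 95 percentile range, and grey bars the interquartile range of all shared regions, and the medians of the 500 are 0.08 to 0.13 in the DTR libraries and −0.41 to −0.32 in the WT libraries, a pattern that the choice of the regions fixes.

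The DTR minus WT difference had a median of 0.45 on the log2 scale, a ratio of fold enrichments of 1.37, and ran from 0.39 to 1.39 (ratios of 1.31 to 2.62). The ratio reached 2 in 3 regions and 1.5 in 63. The gap between the lowest DTR and the highest WT value had a median of 0.22 and was as small as 0.0016. These regions varied more between libraries of the same group than others did, with a median SD of 0.12 in DTR and 0.14 in WT (n = 3 each) against 0.080 and 0.089 over all shared regions. Among shared regions within the interquartile range of the 500 for width and mean fold the SDs were 0.107 and 0.115, and for the regions of the 500 in that range 0.116 and 0.135, so the excess was smaller there. The threshold itself marks no step. The last 3 regions inside had differences of 0.3903, 0.3899 and 0.3896, near Ccdc185, at chr11:84794596-84794943 and near Asnsd1, and the first 3 outside had 0.3895, 0.3894 and 0.3891, at chr5:101100997-101101563, in Mylk and in Bcl11b.

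Because the same libraries chose the regions and measured them, the difference was also read in libraries whose values were not used for the choice. Their peaks had still helped to set the bounds of the regions and which regions were shared. For each of the 9 pairs of a DTR and a WT library, 500 regions were chosen by the same rule on the remaining 4 libraries, and the pair left out was then compared. In the left-out pairs the median difference was 0.19 to 0.29, against 0.48 to 0.55 in the libraries that had chosen, and 70.6% to 82.8% of the regions were above 0. Over all shared regions the left-out medians were −0.025 to −0.0085, with 43.2% to 47.2% above 0. The direction was thus the same in all 9 pairs, and the size was smaller than in the libraries used for the choice. Regions chosen in the opposite way, as the 500 lowest in DTR, had left-out medians of −0.11 to −0.018, with 52% to 67.6% below 0. The 9 pairs share libraries, so they are not 9 replicates and no test is given.

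**Figure D2:**
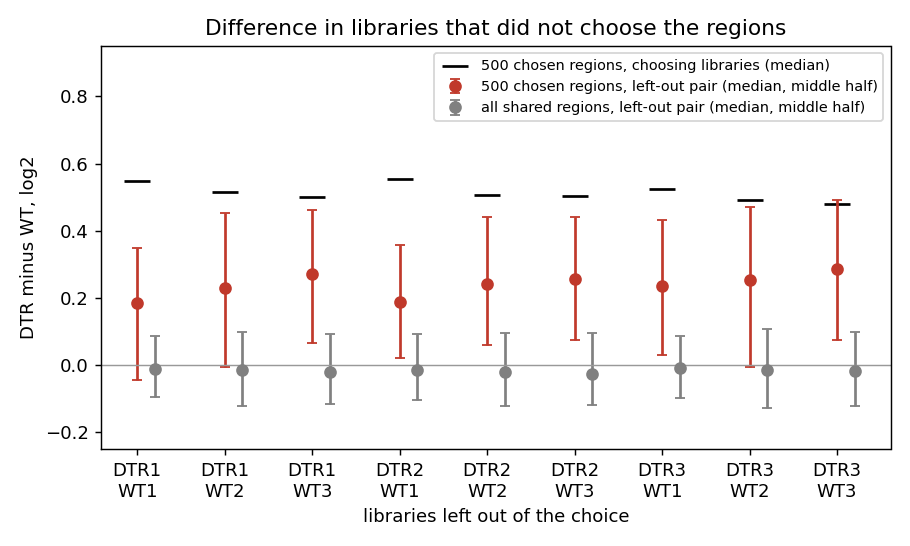
DTR minus WT difference (log2 of fold enrichment, centred) in each of the 9 left-out library pairs, for regions chosen on the other 4 libraries (red) and for all shared regions (grey), as median and interquartile range over regions, with black lines for the median in the choosing libraries. Every left-out median of the regions chosen as higher, 0.19 to 0.29, lies above every median of all shared regions, −0.025 to −0.0085.

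The 500 regions lay away from the ends of genes. A region within 1 kb of where a protein-coding gene begins or stops is said here to be at a gene end, which takes in most promoters. Only 19 of the 500 (3.8%, exact Clopper-Pearson 95% interval 2.30% to 5.87%, which treats regions as independent) were at a gene end, against 19.3% of all shared regions, 9.94% of the 4539 higher regions, 27.5% of the 7469 lower regions and 12.4% of the 500 regions with the largest difference in the opposite direction. Of the others, 46.4% lay in gene bodies and 49.8% between genes, where shared regions had 43.3% and 37.4%. A listed transcription start lay inside 8 of 484 regions (1.65%) on the chromosomes with listed starts, against 15.3% of shared regions. More than 50 kb from any protein-coding gene lay 95 regions (19%), compared with 9.84% of shared regions and 10% of the opposite 500. Position was not used to choose the regions. In the choices made on 4 libraries the share at gene ends was 3.2% to 6%.

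Width and level differ between promoters and other open regions, and both differed here. The 500 were narrower, with a median of 404 bp against 659 bp for shared regions and 676 bp for the opposite 500, and their mean fold enrichment was 5.29 against 5.77. By width the shared regions were ranked and cut into 3 equal parts. At gene ends lay 2.85% of the regions from the 500 in the narrow part, 4.35% in the middle and 8.70% in the wide part, where shared regions had 6.27%, 13.7% and 37.9%. Within the interquartile range of the 500 for both width and mean fold, 3 of 111 (2.70%) were at a gene end, against 6.54% of 7815 shared regions and 4% of 75 regions of the opposite 500. The counts in this range are small, and the part of width and level in the gene-end share was not tested. The first 100 and the last 100 regions by size of difference each had 4% at gene ends.

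**Figure D3:**
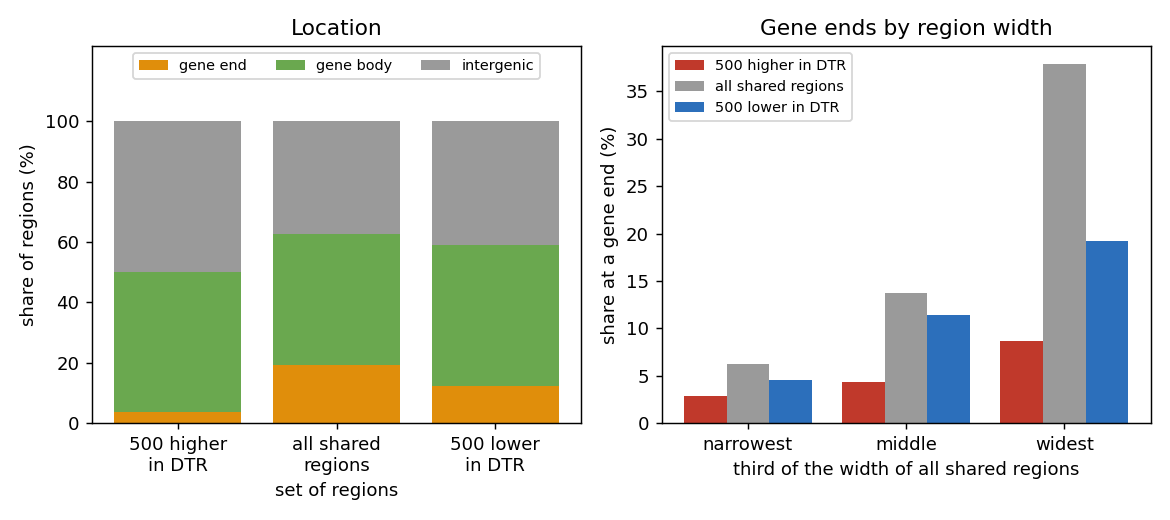
Share of regions at gene ends, in gene bodies and between genes (percent of regions) for the 500 regions, the opposite 500 and all shared regions, with the gene-end share by width beside it. Gene ends hold 3.8% of the 500, 12.4% of the opposite 500 and 19.3% of shared regions, and the 500 are lowest in each of the 3 width classes.

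The peaks of the 500 regions were also mostly wider and stronger by p-value in DTR, measures that come from the same contrast as the choice. They covered a median of 322 to 330 bp in the DTR libraries and 262 to 299.5 bp in the WT libraries, and the mean covered length was larger in DTR at 397 regions (79.4%). Over all shared regions that held for 70.9%. In the opposite 500, with their lower fold enrichment in DTR, it held for 439 (87.8%), so covered length and fold did not move together there. The median deposited −log10 p of the 500 was 21.1 to 23.8 in DTR and 10.8 to 13.3 in WT, against 37.3 to 38.9 and 31.9 to 36.7 over shared regions. In every library 491 of the 500 were a single peak. At some regions named below, such as those of Vwce and Plaur, the peaks were shorter in DTR. The fold enrichments compared there come from peaks of unlike length.

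The largest difference was in Rec114, which encodes a protein needed for the DNA breaks of meiotic recombination. Its region, chr9:58706135-58706684 in the gene body, had fold enrichments of 10.4, 11.3 and 10.6 in DTR and 4.23, 4.57 and 3.35 in WT. All DTR values were more than double any WT value, the difference was 1.39, and the SDs of the log2 values were 0.05 in DTR and 0.25 in WT (n = 3 each). Colec12, which encodes a scavenger receptor of the collectin family, followed with 6.39, 5.22 and 6.23 against 2.45, 2.57 and 2.90 at chr18:9806566-9806916. Its difference was 1.14, and both shared regions of the gene are among the 500. The third-largest difference, singled out after its values were seen, was at chr1:186575656-186576139 with no protein-coding gene within 10 kb. There the values were 8.12, 8.11 and 8.93 in DTR against 2.96, 3.88 and 4.54 in WT.

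The next genes in order of difference had varied known roles. Ddx60, an interferon-induced helicase gene, had a region at chr8:62014248-62014860 with 6.72, 9.21 and 7.26 in DTR and 3.54, 3.49 and 4.63 in WT. DTR library 2 was the highest and the groups stayed apart by 0.52 on the log2 scale. At Magi1, which encodes a scaffold protein of cell junctions, the region chr6:94045082-94045477 had 14.8, 9.88 and 15.0 against 7.43, 6.91 and 7.75. Here DTR library 2 was the lowest of its group, with a gap of 0.32 to the highest WT library. Wwox, a large oxidoreductase gene that spans a fragile site, had 12.7, 11.1 and 12.03 against 6.43, 6.52 and 6.93 at chr8:114847755-114848085. The Acpp region (prostatic acid phosphatase, chr9:104331378-104331719) had the closest WT values of the 20 regions in the plot of named regions, 3.45, 3.55 and 3.55, below 6.33, 7.04 and 6.43 in DTR.

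The 20 regions with the largest difference in or near a protein-coding gene, 1 per gene, had ratios of 1.56 to 2.62 and gaps of 0.21 to 1.15. Of them 16 lay in gene bodies and 0 at gene ends. Besides those above they were at Dclk3, St6galnac3, Gm46320, Ide, Adgrb1, Crbn, Hs6st3, Acadl, Tmem108, Pex26, Sorcs2, Saa1, Unc79 and Mylk. Their roles are mixed. Adgrb1 encodes an adhesion receptor that binds apoptotic cells, and its region chr15:74527729-74528455 had 4.91, 4.82 and 6.46 in DTR against 2.96, 4.01 and 2.88, the smallest gap of the 20. Saa1, an acute-phase protein gene, had a region beside it at chr7:46745830-46746185 with 7.22, 8.28 and 7.20 against 4.96, 4.71 and 4.44. Crbn, which encodes the substrate receptor cereblon of a ubiquitin ligase, had 5.92, 5.68 and 5.40 against 3.48, 3.30 and 3.57 at chr6:106794032-106794724.

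**Figure D4:**
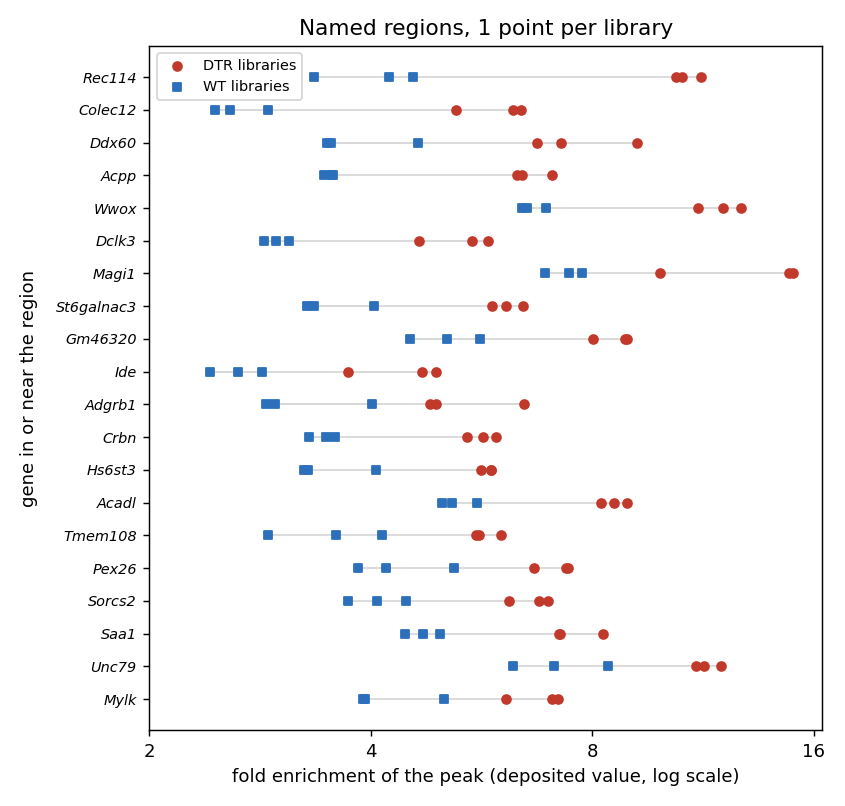
Fold enrichment in each library (log axis) for the 20 regions with the largest difference in or near a protein-coding gene, 1 per gene. Points are single libraries, and in each row the 3 DTR points lie to the right of the 3 WT points, as the rule requires, with the widest separation at Rec114.

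At gene ends the largest difference was at Fcnb, which encodes ficolin B, a lectin of myeloid cells that starts complement activation. Its region chr2:28084878-28085102 takes in 224 of the 250 promoter bases printed above. It had 4.43, 4.75 and 5.55 in DTR and 3.004, 2.59 and 3.81 in WT, a difference of 0.63 with SDs of 0.18 and 0.27 (n = 3 each). Stfa3, a stefin A gene for an inhibitor of cysteine proteases, had a region at chr16:36455404-36456027 that covers 239 of its 250 printed bases, with 11.8, 10.2 and 9.84 against 7.46, 7.19 and 6.43. DTR library 1 was the highest, and the gap of 0.37 was the largest of the 10 gene-end regions. The region of Vwce (chr19:10665375-10665888) varied most in DTR, with 9.23, 12.6 and 7.04 against 5.68, 5.84 and 6.52, and its gap of 0.12 was the smallest of the 10. The Vwce peaks covered 222, 173 and 355 bp in DTR and 438, 469 and 465 bp in WT. Dio2, a thyroid hormone deiodinase gene, had nearly equal DTR values of 8.43, 8.49 and 8.17 above 6.38, 5.58 and 6.04.

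The other gene-end regions with the largest differences were those of Pnliprp1, 2610528A11Rik, Gm13194, Tmem108, Fabp9 and D630039A03Rik. Over all 10 the ratio was 1.37 to 1.55. That of 2610528A11Rik had 6.16, 6.24 and 6.13 in DTR, the smallest SD of the 10, and 4.36, 3.67 and 4.98 in WT. At Gm13194 the values were 7.45, 7.68 and 8.56 against 4.47, 6.19 and 6.03, with WT library 1 lowest. The gene ends of the remaining 9 regions included those of Hoxa5, C1qa, Fmn1, Kcnk5 and Serac1.

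The 500 regions were spread over 324 protein-coding genes, counting those they lie in or within 10 kb of, and 309 of these genes had 1 region. No protein-coding gene was within 10 kb of 194 regions. Tmem108, which encodes a membrane protein studied mainly in neurons, had the most, 5 of the 9 shared regions at the gene. At chr9:103620643-103621138 its values were 7.64, 6.196 and 6.38 in DTR and 3.88, 4.57 and 4.10 in WT. At the gene end printed above, chr9:103761191-103762141, they were 6.002, 5.57 and 5.96 against 4.49, 3.44 and 4.40, and at chr9:103769004-103769216, just outside the gene, 5.60, 5.55 and 6.02 against 4.15, 3.58 and 2.89. DTR was higher without overlap at 7 of the 9 regions, against 6.76% of all shared regions. All 9 differences were above 0, with a median of 0.43. The gene was picked for holding the most of the 500, which this difference chose, so these values are partly fixed by the choice. The 5 shared regions on either side of the gene had medians of −0.052 and −0.11.

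Ide, which encodes insulin-degrading enzyme, had 4 of its 6 shared regions among the 500, all within chr19:37284709-37302764. In genome order their DTR values were 7.90, 5.68 and 6.73, then 10.7, 6.55 and 9.89, then 3.72, 4.70 and 4.91, then 6.09, 5.67 and 5.42. The WT values in the same order were 5.06, 4.83 and 5.03, then 5.39, 5.53 and 5.51, then 2.42, 2.64 and 2.84, then 4.02, 3.27 and 3.18. DTR library 2 was the lowest of its group at the first 2 of these regions and DTR library 1 at the third. Differences at all 6 regions were above 0, with a median of 0.53 on the log2 scale, which the 4 chosen regions partly fix. The 5 regions on either side had medians of −0.014 and 0.027. Of the 5 before the gene 1 was higher in DTR without overlap, and of the 5 after it 0. This stretch is known to vary in copy number among C57BL/6J mice. The peak lists give no copy number, and whether it differed between these mice was not tested.

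Slc39a11, a zinc transporter gene, was different in pattern. Its 3 regions lie together within chr11:113430244-113450376, with DTR values of 5.20 to 7.51 and WT values of 3.94 to 5.50. The median over the gene's 20 shared regions was 0.013, with 10 of the 20 above 0. The groups stayed apart at 4 neighbouring regions, these 3 and the one before them. A further 12 genes had 2 of the 500 regions each, among them Colec12, with 2 of 2 shared regions, Hs6st3 with 2 of 5, Rxra with 2 of 18 and Wwox with 2 of 22.

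**Figure D5:**
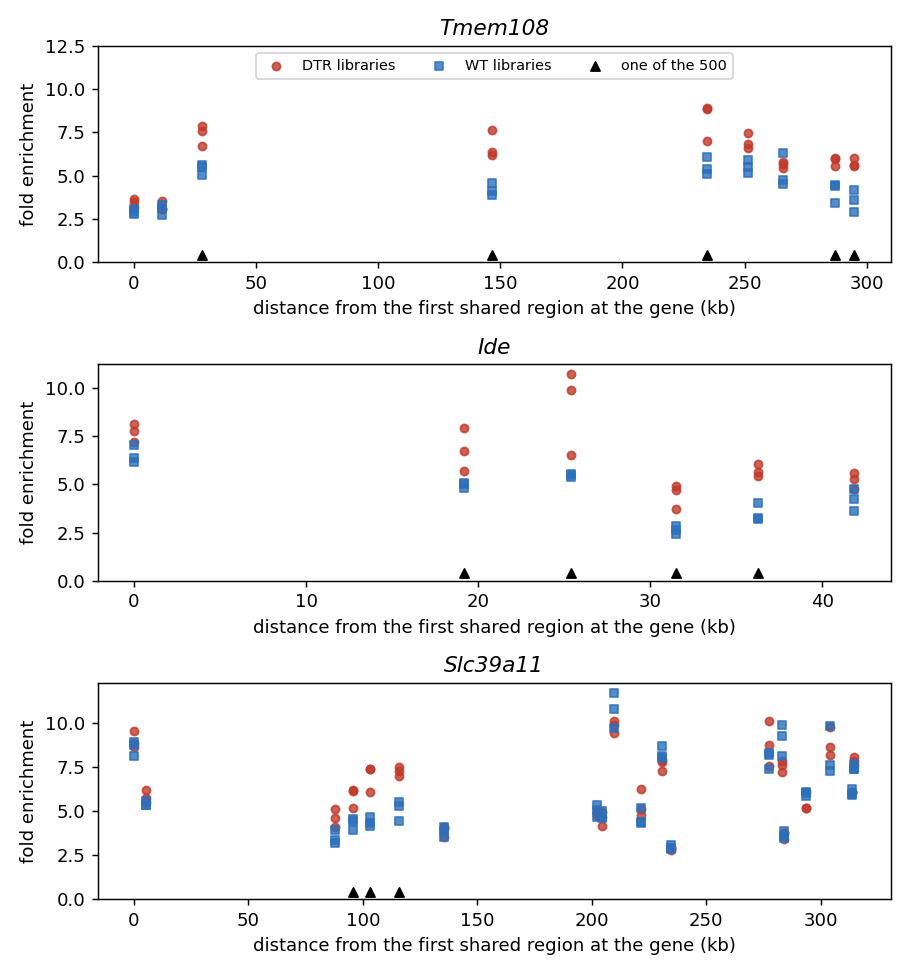
Fold enrichment of every shared region of Tmem108, Ide and Slc39a11 in each library, by distance in kb from the first shared region of the gene, with triangles under the regions that are among the 500. The DTR points lie above the WT points at most regions of Tmem108 and Ide, and at 4 neighbouring regions of Slc39a11 while the groups mix along the rest of it. The choice of the 500 partly fixes this pattern.

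Neighbouring regions were seldom chosen together. With a limit of 50 kb between neighbours, 44 of the 500 fell into 20 clusters and 456 stood alone. Clusters of 3 or more were at Ide, at Slc39a11 and at chr3:57222367-57253237, which has no protein-coding gene within 10 kb. The longest run of consecutive shared regions that were all higher in DTR had 7, at chr1:77043800-77228217, and held 1 of the 500. Its median difference was 0.33. Within 10 kb of a region with a peak in all 3 DTR libraries and in 0 WT libraries lay 18 of the 500 (3.6%), against 1.30% of shared regions and 0.4% of the opposite 500. Within 5 Mb of Gt(ROSA)26Sor, a common site for inserted alleles, 0 of 369 shared regions were among the 500, and within 5 Mb of Pf4 the number was 1 of 181, where 0.745% of all shared regions are among them. The region near Pf4 was within 1 Mb, where there were 53 shared regions. These counts are too small to show a difference from that share.

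By chromosome the 500 were spread unevenly. Chromosome 7 had 9 (1.8%), where it holds 6.24% of shared regions, chromosome 11 had 17 (3.4% against 7.43%) and chromosome 17 had 16 (3.2% against 4.85%). Chromosomes 8, 16, 9 and 1 had more than their share, with 36 (7.2% against 4.89%), 27 (5.4% against 3.67%), 37 (7.4% against 5.24%) and 45 (9% against 6.96%). The share of shared regions at gene ends was 25.01%, 23.98% and 22.04% on chromosomes 7, 11 and 17. On chromosomes 8, 16, 9 and 1 it was lower, at 21.6%, 16.3%, 20.5% and 16.6%, and over all it was 19.3%. Whether this share bears on the uneven spread was not tested.

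Genes that mark blood cells or serve monocyte functions held few of the 500. Of 2395 shared regions in or within 10 kb of the genes of 23 lists, 8 (0.334%) were among the 500, against 0.745% of all shared regions and 0.609% of those in or near any protein-coding gene. Of the 23 lists, 17 had 0 of the 500. Among them were classical monocytes (0 of 66 shared regions), dendritic cells (0 of 92), neutrophils (0 of 50), megakaryocytes and platelets (0 of 78), inflammatory cytokines and NF-kB (0 of 108), antigen presentation (0 of 103), phagocytosis and Fc receptors (0 of 221), TGF-beta signalling (0 of 139) and AP-1 and immediate early genes (0 of 86). At the 0.745% share of all shared regions a list of such size often holds 0, so a 0 in a single list is no result about its genes. The median DTR minus WT difference of a list's shared regions was between −0.051 and 0.013 and was below 0 in 22 of the 23, where that of all shared regions was −0.017.

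The other 6 lists had 8 regions. From the macrophage list it was C1qa, a subunit gene of complement C1q, whose gene-end region chr4:136898775-136899109 had 5.61, 5.82 and 5.11 in DTR against 4.08, 3.67 and 4.37 in WT. The difference was 0.42, and the other 62 shared regions of that list were not among the 500. From the interferon list it was Dtx3l, a ubiquitin ligase gene induced by interferon, with 8.37, 8.92 and 8.15 against 7.14, 4.83 and 6.04 at chr16:35932230-35932939. WT library 1 was the highest WT library there and WT library 2 the lowest. Of that list's 93 shared regions 9 (9.68%) were higher in DTR and 10 (10.8%) lower, against 6.76% and 11.1% of all shared regions.

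Myeloid transcription factors gave 3 of 383 regions. At Runx2, a runt-domain factor, the region chr17:44511275-44511507 had 3.90, 5.71 and 5.66 in DTR and 3.47, 3.31 and 3.47 in WT, so DTR library 1 stood close to WT. At Rxra, a nuclear receptor that pairs with many others, both regions lay outside the gene body, and chr2:27771704-27772456 had 5.99, 6.75 and 6.08 against 4.92, 4.22 and 4.81. The peaks there covered 459, 435 and 479 bp in DTR and 628, 750 and 669 bp in WT. Of the list's regions 12 (3.13%) were higher in DTR and 52 (13.6%) lower, against 6.76% and 11.1% of all shared regions.

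Plaur, the receptor gene for the protease urokinase, came from the coagulation and fibrinolysis list, with 7.09, 5.89 and 5.72 in DTR and 4.31, 4.14 and 4.68 in WT at chr7:24473851-24474273. The Plaur peaks covered 144, 152 and 154 bp in DTR and 420, 309 and 306 bp in WT, so the values come from unlike lengths. P2rx7, which encodes a cation channel opened by extracellular ATP, came from the list of receptors for platelets and their products, with 8.39, 8.59 and 10.02 against 6.55, 6.32 and 6.57 at chr5:122662430-122663137. The WT values were close together and DTR library 3 was the highest. The region near Fabp4, from the non-classical monocyte list, is the one at the end of Fabp9, with 4.67, 4.36 and 4.45 against 3.49, 2.99 and 2.99. Each of these lists had 1 region among the 500, of 102, 131 and 131 shared regions. Whether a different mix of monocyte kinds contributed to these values was not tested. Of the 131 shared regions of the non-classical list, 4 (3.05%) were higher in DTR and 23 (17.6%) lower, and of the 66 of the classical list 1 (1.52%) and 7 (10.6%). Over all shared regions the shares were 6.76% higher and 11.1% lower.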

How the data were processed

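ATAC-seq peaks of 3 DTR and 3 WT libraries were analysed, grouped by their titles. The submitters' processing notes name fastp, Bowtie, Bowtie2 2.4.4 and MACS2. The genome build, the tools' settings and any read shift for Tn5 were not given in the sources used here. The authors called broad peaks on each library alone and deposited, per peak, a fold enrichment, which is a ratio to background, a score, and p-value and q-value as −log10. No counts are in the lists, so depth is unknown, and a difference in depth and a difference in accessibility cannot be told apart.

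From these, regions were merged, centred and ranked as the report states, with Python 3.11.15, numpy 2.4.6 and pandas 2.3.3, and the steps were tested on simulated data. Coordinates are those of the lists, counted from 1. Genes and promoters came from RefSeq tables of GRCm38.p6. Of 31396 listed starts 41.6% lay in a shared region, against 3.45% to 4.04% after shifts of 5 or 20 kb. The promoter table is not complete and was not used on chromosome 18. Distal sequences were not analysed here.

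The members and gene lists were chosen with earlier results of these data known. Regions were named by rule: the 20 with the largest difference in or within 10 kb of a gene, the 10 at gene ends (both 1 per gene), genes with several regions, up to 3 per list, and 3 on either side of the threshold. A few others are named as further examples, chosen after their values were seen. Because the rule used the DTR and WT values, their differences carry no test.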

Additional observations from a re-analysis of the deposited data

How the results depend on the processing

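Of 82 values under 21 alternative settings, 63 stayed within limits set around the reported value, and direction was not scored. The limit was a fold range for counts and the spread between libraries, 0.144, for the median difference. For the gene-end share it was the 95% interval, and for the left-out difference the SD over the 9 pairs. Without centring 6969 regions were higher and 3433 lower in DTR. With groups allowed to overlap, the numbers were 29039 and 38060. Leaving out a library gave 6939 to 8636 higher and 10770 to 14257 lower regions, since fewer libraries must agree, and 326 to 359 of the 500 were chosen again. For the median difference the range was then 0.47 to 0.52, and for the gene-end share 2.6% to 5.4%. Ranked by −log10 p, the chosen regions had a median of 0.76, on another scale, and 384 of the 500 were among them. With −log10 q of at least 5 the number chosen again was 359, with regions of at least 300 bp 358, and with groups allowed to overlap 442. Windows of 2.5 kb put 8.2% of the 500 and 25.7% of all shared regions at gene ends. The replicate numbers share no stated source. Deviations of same-numbered libraries correlated at 0.0033, 0.074 and −0.032, and those of differently numbered ones at −0.090 to 0.089. These values cannot tell whether the numbers pair the libraries. With a replicate block, in which each same-numbered pair must differ the same way, 9306 regions were higher and 14261 lower, the median difference was 0.46, the gene-end share 4.4% and 461 of the 500 were chosen again. The left-out difference over same-numbered pairs, an alternative chosen after seeing the data, was 0.24.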
